A study of Mus musculus with 5 samples.

Results

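Cycling epithelial cells of injected mouse mammary glands were chosen by their transcripts, as barcodes that passed an epithelial gate and held genes of the cell division programme. The gate asked for at least 300 detected genes, at most 20% mitochondrial counts, at least 1 UMI (unique molecular identifier, which counts 1 captured transcript) of Epcam and at least 2 of Krt8 and Krt18 together. It also asked for no UMI of Ptprc, a leukocyte gene, or of Pecam1, an endothelial gene. A cycling cell held at least 3 of the 6 genes Top2a, Birc5, Ube2c, Cenpf, Ccnb2 and Mki67. This gave 1385 cells, out of 15353 gate cells and 31261 kept barcodes of the 4 gland libraries, and out of 33551 kept barcodes in the whole series.

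The series profiled single cells of mammary glands and of 1 mammary tumor with the 10x Genomics 3' v2 kit, per the labels. The mice carried Krt14cre and Trp53 flox/flox. BPK mice were in addition Brca1 wt/flox, and PK mice Brca1 wt/wt, so that the deletion of Trp53 is common to the compared groups. Cre is driven by the promoter of Krt14, a basal keratin gene. Glands had been injected through the duct 12 times with 4NQO, a compound that forms bulky DNA adducts, or with PBS/PEG vehicle. The groups were BPK 4NQO with 2 libraries, PK 4NQO with 1 and BPK vehicle with 1. The tumor was a BPK tumor that formed after 24 injections of 4NQO. Ages were not given in the sources used here, and the labels do not say whether libraries came from separate animals. The p-values therefore measure the spread between libraries, which may be technical. A PK vehicle gland was not analysed here, so the genotypes were compared after 4NQO alone.

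A dividing cell copies its DNA in S phase and then condenses, aligns and separates its chromosomes in G2 and mitosis. E2F factors control the S phase genes, and the DREAM and MuvB complexes control the G2 and mitosis genes through promoter elements called CHR and CCAAT boxes. The mammary gland is lined by luminal cells, which are either alveolar cells that make milk proteins or hormone-sensing cells that carry the receptors for estrogen, progesterone and prolactin, with a contractile basal layer beneath them. In the adult gland, luminal cells divide in response to signals that hormone-sensing cells release.

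Of the 6 genes that chose the cells, Top2a encodes the topoisomerase that untangles DNA, Birc5 the survivin subunit of the chromosomal passenger complex and Ube2c an enzyme of the anaphase-promoting complex. Cenpf encodes a kinetochore protein, Ccnb2 a cyclin of mitotic entry and Mki67 the Ki-67 protein that coats mitotic chromosomes. The promoters of Ube2c and Ccnb2 are shown because they hold both kinds of element that are known from this gene class. They run from 250 bases before to 50 bases after the gene start in RefSeq on GRCm38.p6. Capitals mark the CHR letters TTTGAA and the CCAAT letters on either strand. Ube2c (chr2:164769679-164769978, plus strand) held 1 CHR and 6 CCAAT matches, of which 1 pair overlapped, and Ccnb2 (chr9:70421505-70421804, minus strand) held 2 CHR and 3 CCAAT matches.
Ube2c: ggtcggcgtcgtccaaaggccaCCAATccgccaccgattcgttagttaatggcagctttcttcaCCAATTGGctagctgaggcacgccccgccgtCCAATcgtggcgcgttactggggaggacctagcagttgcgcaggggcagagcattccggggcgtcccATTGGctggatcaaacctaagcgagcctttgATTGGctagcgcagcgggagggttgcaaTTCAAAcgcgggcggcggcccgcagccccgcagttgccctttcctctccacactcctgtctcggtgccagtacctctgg
Ccnb2: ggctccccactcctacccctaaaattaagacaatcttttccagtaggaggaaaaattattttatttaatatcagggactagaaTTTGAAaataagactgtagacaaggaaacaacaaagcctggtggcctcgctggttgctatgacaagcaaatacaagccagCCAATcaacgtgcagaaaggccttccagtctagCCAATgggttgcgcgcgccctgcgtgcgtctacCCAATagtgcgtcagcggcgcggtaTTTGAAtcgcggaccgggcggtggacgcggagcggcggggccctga
TTTGAA and CCAAT were both in the same 5 of the 6 promoters, and that of Birc5 held neither. In 32851 RefSeq promoters of the same length, TTTGAA was in 17.9% and CCAAT in 37.4%. Of 28 promoters of a list of G2 and mitosis genes, 18 held TTTGAA and 21 held CCAAT. Of 24 promoters of a list of S phase genes, 3 held TTTGAA. A match of letters is a description and no measure of binding.

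The cells numbered 172 and 93 in the BPK 4NQO replicates, 227 in the PK 4NQO gland and 893 in the BPK vehicle gland. Their median depth was 12335 and 9054 UMIs in BPK 4NQO replicates 1 and 2, 9052 in PK 4NQO and 12601 in BPK vehicle. Mki67 was detected in 69.8% and 93.5% of them in the BPK 4NQO replicates, in 59.5% in PK 4NQO and in 72.7% in BPK vehicle. Epcam averaged 1149 and 1614 CPM (a gene's UMIs summed over the cells and scaled by all UMIs of these cells to the usual CPM unit) in the BPK 4NQO replicates, 1347 in PK 4NQO and 1372 in BPK vehicle. The epithelial genes and the division genes thus occurred together in each gland library, which the rule itself sets. Just inside the limit, cells with 3 of the 6 genes held 1454 and 2242 CPM of the summed G2 and mitosis list in the BPK 4NQO replicates, 1710 in PK 4NQO and 974 in BPK vehicle. Just outside it, cells with 2 of the 6 held 550 and 938 CPM in the BPK 4NQO replicates, 764 in PK 4NQO and 556 in BPK vehicle.

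BPK 4NQO replicate 2 stood apart from the other libraries. It held the fewest UMIs in total, 27383717 against 35281954 to 64169843 in the other glands, and 24.4% of its kept barcodes passed the gate, against 52.2% to 58.3%. Its barcodes coincided with those of the other glands in 1 to 2 cases a pair, against 78 to 107 between the other glands, and no barcode of a cycling cell was a cycling cell in another gland. At least 2 UMIs of 7 fibroblast markers were in 17.4% and 43.0% of the cycling cells in the BPK 4NQO replicates, 11.5% in PK 4NQO and 29.0% in BPK vehicle. The summed fibroblast markers came to 205 and 1950 CPM in the BPK 4NQO replicates, 192 in PK 4NQO and 243 in BPK vehicle. Summed macrophage markers came to 57.6 and 51.8 CPM in the BPK 4NQO replicates, 13.8 in PK 4NQO and 21.9 in BPK vehicle, and T and NK cell, B cell and adipocyte markers to at most 6.72 CPM in any library. Barcodes with the top doublet scores made up 8.14% and 9.68% of the cycling cells in the BPK 4NQO replicates, 3.96% in PK 4NQO and 14.1% in BPK vehicle. Their part in the results was not tested beyond leaving such cells out. Trp53 was at 30.8 and 26.9 CPM in the cycling cells of the BPK 4NQO replicates, 37.9 in PK 4NQO and 52.6 in BPK vehicle. Brca1 was at 7.04 and 14.4 CPM in the BPK 4NQO replicates, 3.94 in PK 4NQO and 6.21 in BPK vehicle. A 3' tag that lies outside a deleted part does not check the deletion, and the floxed exons were not given in the sources used here.

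Cycling cells were a smaller share of the epithelial gate in the BPK 4NQO glands than in the BPK vehicle gland. They were 4.41% of gate cells in BPK 4NQO replicate 1 (95% Clopper-Pearson interval 3.79 to 5.10) and 5.49% in replicate 2 (4.45 to 6.68). In the PK 4NQO gland the share was 5.29% (4.64 to 6.01), and in the BPK vehicle gland it was 16.3% (15.4 to 17.3). The intervals cover counting error only. The vehicle share lay above the 3 4NQO shares and its interval did not meet theirs, while the 4NQO glands lay close together. The BPK 4NQO mean of 4.95% ± 0.762 (SD, n = 2) was 0.303 times the vehicle value. With 2 libraries against 1, an exact permutation test cannot go below p = 0.333, so no test was made.

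Deeper cells show more genes, and gate cells had a median of 7115 and 4437 UMIs in the BPK 4NQO replicates, 5479 in PK 4NQO and 7918 in BPK vehicle. After each gate cell was thinned to 3000 UMIs, the cycling share was 2.34% (1.87 to 2.90) and 4.79% (3.64 to 6.16) in the BPK 4NQO replicates, 3.0% (2.45 to 3.63) in PK 4NQO and 7.41% (6.70 to 8.17) in BPK vehicle. Gate cells under 3000 UMIs were left out, which were 11.4% and 29.7% of the gate in the BPK 4NQO replicates, 20.7% in PK 4NQO and 8.16% in BPK vehicle. The vehicle gland stayed highest, at 2.08 times the BPK 4NQO mean in place of 3.30 times. BPK 4NQO replicate 2 came nearest to it. Between BPK 4NQO and PK 4NQO the order turned with thinning, so no order of the genotypes can be read from the shares. Barcodes outside the gate held at least 3 of the 6 genes in 2.77% and 4.58% in the BPK 4NQO replicates, 2.22% in PK 4NQO and 4.18% in BPK vehicle.

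By lineage, alveolar and hormone-sensing cells had the lower cycling shares in the 4NQO glands. Each gate cell was given the highest of 4 marker scores, alveolar, hormone-sensing, basal or keratinocyte. All passed the gate, so basal cells here held Epcam and at least 2 UMIs of Krt8 and Krt18 together. Cycling cells scored basal or keratinocyte still held hormone-sensing markers, at 1115 and 848 CPM in the BPK 4NQO replicates. The sum was 973 CPM in PK 4NQO and 1806 in BPK vehicle. Their summed basal markers were 7956 and 6527 CPM in the BPK 4NQO replicates, 12450 in PK 4NQO and 5701 in BPK vehicle. Among alveolar cells 4.70% and 4.51% were cycling in the BPK 4NQO replicates, 6.58% in PK 4NQO and 20.1% in BPK vehicle. Among hormone-sensing cells the shares were 1.79% and 2.59% in the BPK 4NQO replicates, 1.98% in PK 4NQO and 13.9% in BPK vehicle. Basal cells gave 6.69% and 11.4% in the BPK 4NQO replicates, 8.85% in PK 4NQO and 10.9% in BPK vehicle. For alveolar and hormone-sensing cells the 3 4NQO glands thus lay well below vehicle, while for basal cells the vehicle value lay among them. In keratinocyte-scored cells the shares were 11.7% and 10.7% in the BPK 4NQO replicates, 6.78% in PK 4NQO and 16.9% in BPK vehicle. As ratios of the BPK 4NQO mean to vehicle, these were 0.229 for alveolar, 0.157 for hormone-sensing, 0.831 for basal and 0.662 for keratinocyte-scored cells. With cells thinned to 3000 UMIs and at least 2 of the 6 genes asked for, basal cells gave 10.3% and 21.5% in the BPK 4NQO replicates, 13.6% in PK 4NQO and 13.4% in BPK vehicle, and alveolar cells 3.64% and 5.61% in the BPK 4NQO replicates, 4.98% in PK 4NQO and 13.6% in BPK vehicle. Hormone-sensing cells gave 1.46% and 3.88% in the BPK 4NQO replicates, 2.19% in PK 4NQO and 11.2% in BPK vehicle. Keratinocyte-scored cells gave 10.1% and 14.5% in the BPK 4NQO replicates, 9.20% in PK 4NQO and 13.2% in BPK vehicle, so that vehicle no longer stood above replicate 2. The difference in ratio between lineages was not tested, since the vehicle and PK groups have 1 library each.

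**Figure D1:**
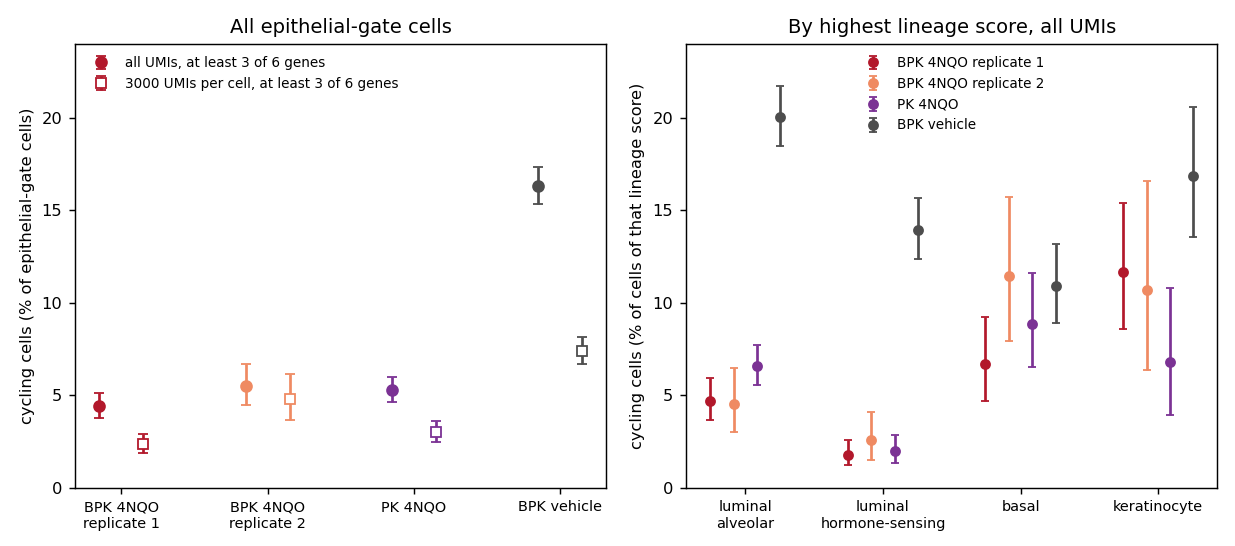
The left panel plots the percent of epithelial gate cells that were cycling in each gland library, with all UMIs (filled) and at 3000 UMIs per cell (open squares), with 95% counting intervals. The right panel plots the same percent within each lineage score, and the vehicle gland stands above the 4NQO glands for alveolar, hormone-sensing and keratinocyte-scored cells but not for basal cells.

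The make-up of the cycling cells follows from the lineage shares above and the make-up of the gate, so it is not a separate observation. Of basal and keratinocyte-scored cells together, 8.78% and 11.16% were cycling in the BPK 4NQO replicates, 8.2% in PK 4NQO and 12.97% in BPK vehicle. With all UMIs, their larger part of the BPK 4NQO cycling cells thus came with lower luminal cycling shares. It did not come with a higher cycling share of their own. Cells with basal or keratinocyte as the highest score were 44.8% (37.2 to 52.5) and 52.7% (42.1 to 63.1) of the cycling cells in the BPK 4NQO replicates, 27.3% (21.6 to 33.6) in PK 4NQO and 19.5% (16.9 to 22.2) in BPK vehicle. Both BPK 4NQO replicates lay above the other glands, with a mean of 48.7% ± 5.60 (SD, n = 2), which was 2.50 times the vehicle value. Among non-cycling gate cells matched for depth, the same cells were 11% and 6.45% in the BPK 4NQO replicates, 9.69% in PK 4NQO and 14.0% in BPK vehicle. These matched cells thus did not show the order seen in the cycling cells. In the whole gate, basal cells were 13.0% and 16.5% in the BPK 4NQO replicates, 12.1% in PK 4NQO and 16.1% in BPK vehicle. Keratinocyte-scored cells were 9.46% and 9.38% of the gate in the BPK 4NQO replicates, 5.50% in PK 4NQO and 8.45% in BPK vehicle. Matching lowered the basal share most in BPK 4NQO, to 2.33% and 2.15%, which enlarges the contrast with cycling cells there. Alveolar cells were 38.4% and 29.0% of the cycling cells in the BPK 4NQO replicates, 59.9% in PK 4NQO and 52.6% in BPK vehicle. The highest 2 scores lay within 0.1 of each other in 11.6% and 6.45% of the cycling cells in the BPK 4NQO replicates, 5.29% in PK 4NQO and 12.4% in BPK vehicle.

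**Figure D2:**
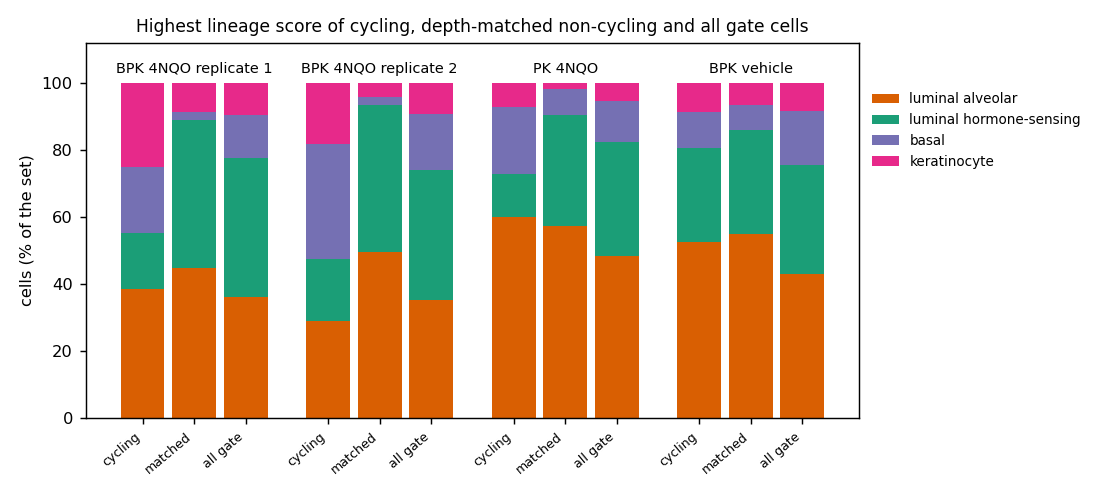
Stacked bars give the percent of cells with each of the 4 lineage scores as the highest, for cycling cells, depth-matched non-cycling cells and all gate cells of each gland library. Basal and keratinocyte scores together reach 44.8% and 52.7% of cycling cells in the BPK 4NQO replicates, 27.3% in PK 4NQO and 19.5% in BPK vehicle.

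Cycling cells of the PK 4NQO gland held fewer S phase transcripts than those of the other glands. The summed S phase list came to 1354 and 1577 CPM in the BPK 4NQO replicates, 645 in PK 4NQO and 978 in BPK vehicle. The summed G2 and mitosis list came to 2683 and 3370 CPM in the BPK 4NQO replicates, 2439 in PK 4NQO and 2107 in BPK vehicle. Per unit of the G2 and mitosis list, the S phase list stood at 0.505 and 0.468 in the BPK 4NQO replicates, 0.265 in PK 4NQO and 0.464 in BPK vehicle. The PK 4NQO value was the lowest and the other 3 lay close together. The S phase sum exceeded the G2 and mitosis sum in 27.3% and 23.7% of the cycling cells in the BPK 4NQO replicates, 7.05% in PK 4NQO and 19.7% in BPK vehicle. Pcna, the clamp that holds DNA polymerase on its template, was at 77.4 and 65.3 CPM in the BPK 4NQO replicates, 26.6 in PK 4NQO and 46.1 in BPK vehicle. Within alveolar cells the ratio was 0.528 and 0.567 in the BPK 4NQO replicates, 0.293 in PK 4NQO and 0.476 in BPK vehicle. Among hormone-sensing cells it was 0.395 and 0.443 in the BPK 4NQO replicates, 0.505 in PK 4NQO and 0.530 in BPK vehicle, so the low PK 4NQO ratio was not seen there. The S phase sum was the larger in 6.90% of these cells in PK 4NQO. That share was 13.8% and 17.6% in the BPK 4NQO replicates and 22.9% in BPK vehicle. Basal cells had ratios of 0.434 and 0.337 in the BPK 4NQO replicates, 0.120 in PK 4NQO and 0.266 in BPK vehicle. Keratinocyte-scored cells had 0.613 and 0.610 in the BPK 4NQO replicates, 0.298 in PK 4NQO and 0.460 in BPK vehicle. These sums describe the cells, since the rule chose them on genes of the same programme. The PK 4NQO library was processed with another Cell Ranger release than the other gland libraries, which cannot be told apart from its genotype.

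**Figure D3:**
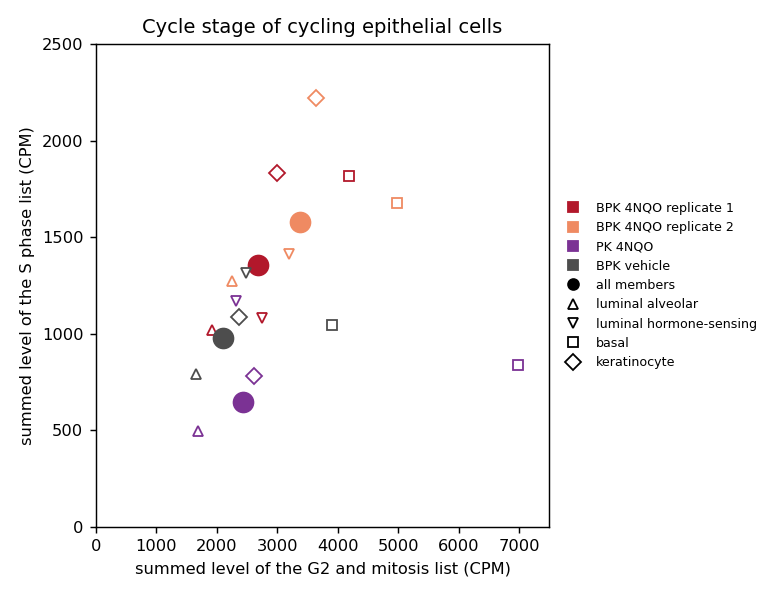
Each large filled point is the cycling cells of 1 gland library and each open point 1 lineage within it, with the summed CPM of the G2 and mitosis list on the x axis and of the S phase list on the y axis. Among the large points PK 4NQO lies lowest, at 645 CPM of the S phase list.

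Set against depth-matched non-cycling gate cells of the same library, cycling cells differed in a large part of the transcriptome. Beyond the division genes, 17 of 20 tested genes of the replication stress, homologous recombination and Fanconi list were higher. Lower were 12 of 12 immediate early and heat shock genes, 6 of 8 hormone-sensing markers and 7 of 10 alveolar markers. Counts were summed per library and tested with edgeR's quasi-likelihood test with library as a block and Benjamini-Hochberg adjustment, and calls below are at an adjusted p under 0.05. Of 9769 genes, 1137 were higher and 924 lower, so that 21.1% were called (11.6% higher and 9.46% lower). The 27 tested genes of the S phase list and the 34 of the G2 and mitosis list were higher, with median log2 fold changes of 2.28 and 5.69, which restates the choice of the cells. Without the block 514 genes were called, and without BPK 4NQO replicate 1 1096 were. The cycling list genes with the largest folds were Hmmr, Ccnb1, Nusap1, Ccna2, Pbk, Tpx2, Cenpe, Prc1, Cdk1 and Cdca3.

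Outside these lists the largest increases were in other genes of chromosome duplication and segregation. Hist1h1b, a linker histone of S phase, was at 100.3 and 515 CPM in the cycling cells of the BPK 4NQO replicates, 37.4 in PK 4NQO and 56.2 in BPK vehicle. It was at 1.32 and 7.76 CPM in the non-cycling cells of the BPK 4NQO replicates, 0.493 in PK 4NQO and 1.58 in BPK vehicle, a log2 fold change of 5.50 (SE 0.186, edgeR adjusted p = 2.05e-08). The groups did not overlap. Stmn1, which destabilises microtubules, was at 225 and 304 CPM in cycling cells of the BPK 4NQO replicates, 185 in PK 4NQO and 229 in BPK vehicle, against 8.82 and 6.79 CPM in non-cycling cells of the BPK 4NQO replicates, 3.45 in PK 4NQO and 13.1 in BPK vehicle (log2 fold change 4.54). Spc24, a kinetochore subunit, had a log2 fold change of 5.30, Hist1h2ap, a core histone, of 5.03, Tk1, which salvages thymidine, of 4.57, Knstrn, of the spindle, of 4.23, Smc2, of condensin, of 4.06 and Cenpw, of the centromere, of 3.68. The long noncoding RNA Lockd, named for its place next to Cdkn1b, had a log2 fold change of 5.22. These genes were chosen after their values were seen, as those that lead outside the 2 lists.

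The replication stress, homologous recombination and Fanconi list had 20 of its 29 genes tested, with 17 higher and 1 lower and with a median log2 fold change of 1.77 beside −0.00 over all genes. H2afx, the histone that is phosphorylated at DNA breaks, was at 145 and 80.6 CPM in cycling cells of the BPK 4NQO replicates, 66.0 in PK 4NQO and 91.8 in BPK vehicle. In the non-cycling cells it was at 18.5 and 11.6 CPM in the BPK 4NQO replicates, 12.8 in PK 4NQO and 14.1 in BPK vehicle (log2 fold change 2.60, SE 0.129, edgeR adjusted p = 2.15e-07). Each cycling value lay above each non-cycling value. Wee1, a kinase that holds back mitotic entry, fell by 0.49. Of 19 genes of the cyclin D, CDK inhibitor, E2F and Myc list, 11 were higher and Rb1, the brake on E2F factors, was lower (−0.88), with a list median of 0.59. Foxm1 (4.70) and E2f1 (2.91), both drivers of division genes, were examples with large folds, while Ccnd1, the D cyclin of G1, was higher by 0.56. Cdkn1a, the p53-induced CDK inhibitor, was at 115 and 124 CPM in cycling cells of the BPK 4NQO replicates, 108 in PK 4NQO and 134 in BPK vehicle, and its log2 difference of −0.33 did not pass (edgeR adjusted p = 0.0606).

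The 12 immediate early and heat shock genes were all lower in cycling cells, with a median log2 fold change of −0.94, and in luminal cells alone the 12 were again lower (−0.86). Fos, a subunit of the AP-1 factor, was at 1905 and 1446 CPM in cycling cells of the BPK 4NQO replicates, 2442 in PK 4NQO and 2046 in BPK vehicle. In non-cycling cells it was at 4234 and 3800 CPM in the BPK 4NQO replicates, 4093 in PK 4NQO and 3949 in BPK vehicle (log2 fold change −1.18, SE 0.105, edgeR adjusted p = 2.07e-05). The non-cycling values were higher in each gland without overlap. Jun, its partner, fell by 1.04 and Egr1, an early growth response factor, by 1.02.

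Of 8 hormone-sensing markers 6 were lower in cycling cells (median −0.97), as were 7 of 10 alveolar markers (median −0.65). The make-up moved with this. Hormone-sensing cells were 16.9% and 18.3% of the cycling cells in the BPK 4NQO replicates, 12.8% in PK 4NQO and 27.9% in BPK vehicle, and 44.2% and 44.1% of the matched non-cycling cells in the BPK 4NQO replicates, 33.0% in PK 4NQO and 31.1% in BPK vehicle. Among luminal cells alone, 5 of 8 hormone-sensing markers were lower (median −0.75), and of 10 alveolar markers 6 were lower and Aldh1a3 and Wfdc18 higher (median −0.37). The luminal cells still mixed alveolar and hormone-sensing cells in unlike parts, and a difference within either lineage was not tested. Prlr, the prolactin receptor, was at 308 and 546 CPM in cycling cells of the BPK 4NQO replicates, 478 in PK 4NQO and 551 in BPK vehicle, and at 1193 and 2215 CPM in non-cycling cells of the BPK 4NQO replicates, 921 in PK 4NQO and 755 in BPK vehicle (log2 fold change −1.46, SE 0.235, edgeR adjusted p = 0.00144). Pgr, the progesterone receptor, fell by 1.32, Trf, which makes transferrin for milk, by 1.48 and Lalba, which makes alpha-lactalbumin, by 1.71. Gpx3, an extracellular glutathione peroxidase (chr11:54902453-54910377, plus strand, GRCm38), was at 761 and 569 CPM in cycling cells of the BPK 4NQO replicates, 376 in PK 4NQO and 424 in BPK vehicle. It was at 3520 and 3843 CPM in non-cycling cells of the BPK 4NQO replicates, 1881 in PK 4NQO and 3392 in BPK vehicle (log2 fold change −2.70, SE 0.128, edgeR adjusted p = 1.63e-07). Its cycling values lay below each non-cycling value. The largest decrease among the named genes was in Syn2, a synapsin, with 7.04 and 8.64 CPM in cycling cells of the BPK 4NQO replicates, 9.35 in PK 4NQO and 9.44 in BPK vehicle, against 57.3 and 135 CPM in non-cycling cells of the BPK 4NQO replicates, 36.0 in PK 4NQO and 72.7 in BPK vehicle (log2 fold change −3.05). Aoc1, a diamine oxidase, fell by 2.44, Nrxn3, a neurexin, by 2.33, Tmem86a by 2.29, Slc5a5, the iodide transporter of milk secretion, by 2.15, Glul, glutamine synthetase, by 1.91, Tmed3 by 1.83, Cck, the cholecystokinin hormone, by 1.81 and Kif5c, a kinesin, by 1.72.

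Basal genes went the other way over all lineages together. Of 10 basal markers 6 were higher, with a median of 0.91. Krt5, the partner keratin of Krt14, was at 561 and 422 CPM in cycling cells of the BPK 4NQO replicates, 120 in PK 4NQO and 34.4 in BPK vehicle, against 14.1 and 20.4 CPM in non-cycling cells of the BPK 4NQO replicates, 16.3 in PK 4NQO and 25.3 in BPK vehicle (log2 fold change 2.88, SE 0.625, edgeR adjusted p = 0.00860). The difference was smallest in the vehicle gland. Within luminal cells alone no basal marker of 6 tested was higher and 2 were lower. Luminal cells were those scored highest for neither basal nor keratinocyte markers, so this is in part set by their choice. Over all lineages, the matched non-cycling cells held fewer basal cells than the gate, as given above. Of 8 keratinocyte markers 3 were higher and 2 lower, and of 7 milk protein genes Csn2 was higher and Btn1a1, Csn3, Lalba and Xdh were lower. Of 15 p53 targets, Btg2, an antiproliferative gene, was lower and none was higher. Of 13 NRF2 targets 1 was higher and 3 were lower. Of 13 glycolysis genes 4 were higher, which were Gapdh, Pgam1, Pkm and Tpi1. Of 8 genes of the EGFR family and its ligands the ligands Areg, Btc and Hbegf were lower. Of 23 interferon-stimulated genes 7 were higher (median 0.24), but 2 of 21 were without BPK 4NQO replicate 1, and of 5 MHC class II genes 3 were higher, but 0 of 5 were without it.

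After 4NQO, 9 of 25 interferon-stimulated genes rose in cycling cells of BPK glands relative to those of the vehicle gland. Ubd, Cxcl10, Igtp, Ifit1 and Gbp3 were among them. Cxcl9, a chemokine that interferon gamma induces, was also higher. Treatment was tested on the summed counts of the cycling cells with edgeR's quasi-likelihood test in a model of the 3 groups, in which the spread rests on the 2 BPK 4NQO libraries (1 residual degree of freedom). Of 11092 genes, 115 were higher and 10 lower at an adjusted p under 0.05, which is 1.13% (1.04% and 0.0902%). By DESeq2 the count was 49, and in luminal cells alone 62 were called by edgeR. In 50 of these 125 genes a single cell held at least 50% of the gene's UMIs in a compared library. Since counts were summed over cells, more cells with a transcript and more transcript per cell cannot be told apart in these folds.

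The 9 interferon-stimulated genes that rose were Cxcl10, Gbp3, Ifi44, Ifit1, Igtp, Irgm1, Oasl2, Ubd and Usp18. The 25 of the list had positive log2 fold changes, with a median of 2.64 beside 0.01 over all genes. Their summed level in cycling cells was 2358 and 2309 CPM in the BPK 4NQO replicates, 886 in PK 4NQO and 540 in BPK vehicle. In matched non-cycling cells it was 1498 and 1229 CPM in the BPK 4NQO replicates, 868 in PK 4NQO and 518 in BPK vehicle. The BPK 4NQO glands stood highest in both kinds of cell. In luminal cells alone, 6 of 23 interferon-stimulated genes rose (median 2.30). Without replicate 2 the median of the list was 2.32, with no test left. Summed macrophage markers were also higher in BPK 4NQO cycling cells, with 5 to 7 of 7 markers detected in a library, and at least 2 of their UMIs were in 1.74% and 15.1% of the cells in the BPK 4NQO replicates, 0.881% in PK 4NQO and 2.02% in BPK vehicle. Their part was not tested. With cells of 2 or more fibroblast UMIs left out, 8 of 23 rose.

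Ubd (chr17:37193892-37196095, plus strand, GRCm38), which makes the ubiquitin-like protein FAT10, was at 135 and 119 CPM in cycling cells of the BPK 4NQO replicates, 5.41 in PK 4NQO and 0.350 in BPK vehicle. Its UMIs were in 49 and 19 cells of the BPK 4NQO replicates, 9 of PK 4NQO and 4 of BPK vehicle. Both BPK 4NQO replicates lay far above the other glands (log2 fold change against vehicle 8.16, SE 1.22, edgeR adjusted p = 3.42e-08). In luminal cells alone the log2 fold change was 8.28. In matched non-cycling cells Ubd was at 20.3 and 18.4 CPM in the BPK 4NQO replicates, 3.95 in PK 4NQO and 0.350 in BPK vehicle (5.52, SE 0.923). Without replicate 2 the log2 fold change in cycling cells was 7.44. The treatment effect in cycling cells was 2.64 larger on the log2 scale, which did not pass (edgeR adjusted p = 0.278).

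Cxcl10 (chr5:92346638-92348889, minus strand, GRCm38), a chemokine that draws T cells, was at 161 and 315 CPM in cycling cells of the BPK 4NQO replicates, 14.8 in PK 4NQO and 7.87 in BPK vehicle. Its UMIs were in 50 and 35 cells of the BPK 4NQO replicates, 16 of PK 4NQO and 55 of BPK vehicle. The BPK 4NQO values stood apart from the rest (log2 fold change 4.62, SE 1.09, edgeR adjusted p = 0.00388), and in luminal cells alone the log2 fold change was 3.65, and without replicate 2 it was 4.18. Cxcl9 was at 41.8 and 214 CPM in the BPK 4NQO replicates, 0.492 in PK 4NQO and 0 in BPK vehicle, in 19 and 21 cells of the BPK 4NQO replicates. Against a floor of 3 counts in the vehicle library, replicate 1 was at least 159-fold higher and replicate 2 at least 816-fold higher. Igtp, an interferon-induced GTPase, was at 44.9 and 42.2 CPM in the BPK 4NQO replicates, 5.91 in PK 4NQO and 3.06 in BPK vehicle (3.59, SE 0.772, edgeR adjusted p = 0.000905). Ifit1, which binds foreign RNA, was at 25.5 and 28.8 CPM in the BPK 4NQO replicates, 10.3 in PK 4NQO and 2.45 in BPK vehicle (3.21, edgeR adjusted p = 0.00251). For each of these the BPK 4NQO replicates lay above PK 4NQO. For Cxcl10, Igtp and Ifit1 PK 4NQO lay above vehicle, while the Cxcl9 values of both glands were too near 0 for an order. For Cxcl10 this order held in luminal cells, at 18.0 CPM in PK 4NQO and 8.51 in BPK vehicle. It turned in basal or keratinocyte-scored cells, at 0 CPM in PK 4NQO and 4.45 in BPK vehicle. Isg15, a ubiquitin-like modifier, was at 124 and 115 CPM in the BPK 4NQO replicates, 58.6 in PK 4NQO and 22.7 in BPK vehicle, and did not pass (2.16, edgeR adjusted p = 0.505).

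The interferon-stimulated response element is the promoter motif through which interferon signals are known to act, and 3 promoters of called genes that hold it are shown. Capitals mark GAAA, then any 2 bases, then GAAA, or the reverse complement, searched on both strands. The promoters are those of Ifit1 (chr19:34640639-34640938, plus strand), with 2 matches on the opposite strand, Cxcl10 (chr5:92348840-92349139, minus strand) and Igtp (chr11:58199306-58199605, plus strand), in RefSeq on GRCm38.p6.
Ifit1: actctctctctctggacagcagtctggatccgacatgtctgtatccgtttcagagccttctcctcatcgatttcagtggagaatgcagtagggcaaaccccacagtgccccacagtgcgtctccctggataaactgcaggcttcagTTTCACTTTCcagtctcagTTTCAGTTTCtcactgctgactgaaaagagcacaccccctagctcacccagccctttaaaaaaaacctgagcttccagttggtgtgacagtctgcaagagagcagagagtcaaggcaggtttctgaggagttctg
Cxcl10: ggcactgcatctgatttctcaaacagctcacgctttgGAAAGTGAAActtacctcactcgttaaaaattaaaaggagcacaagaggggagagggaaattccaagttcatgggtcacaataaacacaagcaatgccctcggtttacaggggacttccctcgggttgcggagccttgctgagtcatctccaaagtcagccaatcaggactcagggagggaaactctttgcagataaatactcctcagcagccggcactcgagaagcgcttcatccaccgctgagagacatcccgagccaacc
Igtp: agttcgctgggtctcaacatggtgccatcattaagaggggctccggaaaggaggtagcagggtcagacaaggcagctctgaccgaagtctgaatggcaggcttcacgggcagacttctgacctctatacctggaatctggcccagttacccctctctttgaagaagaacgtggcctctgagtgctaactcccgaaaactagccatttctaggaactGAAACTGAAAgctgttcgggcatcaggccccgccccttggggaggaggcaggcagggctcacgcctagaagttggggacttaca
The motif was in 11 of the 20 promoters of the list that were found, and in 5 of the 8 of called genes, which were Ifit1, Cxcl10, Igtp, Irgm1 and Gbp3. It was in 3.44% of all 32851 promoters.

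MHC class II genes, which present antigen to helper T cells, had 1 of 6 tested members higher after 4NQO. Their summed level was 1346 and 488 CPM in cycling cells of the BPK 4NQO replicates, 363 in PK 4NQO and 81.2 in BPK vehicle, and 168 and 187 CPM in non-cycling cells of the BPK 4NQO replicates, 55.8 in PK 4NQO and 67.3 in BPK vehicle. H2-Ab1 (chr17:34257689-34269419, plus strand, GRCm38) was that gene, with 303 and 128 CPM in the BPK 4NQO replicates, 85.1 in PK 4NQO and 10.5 in BPK vehicle (log2 fold change 4.18, SE 1.09, edgeR adjusted p = 0.0166). The list median was 3.54. A single cell held 86.7% of the H2-Ab1 UMIs of PK 4NQO, so that its PK value rests on that cell. Cd74, the invariant chain, was at 753 and 278 CPM in the BPK 4NQO replicates, 173 in PK 4NQO and 25.7 in BPK vehicle (4.15, edgeR adjusted p = 0.0566), and 94.6% of its PK 4NQO UMIs came from 1 cell. In luminal cells alone 3 of 6 rose.

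**Figure D4:**
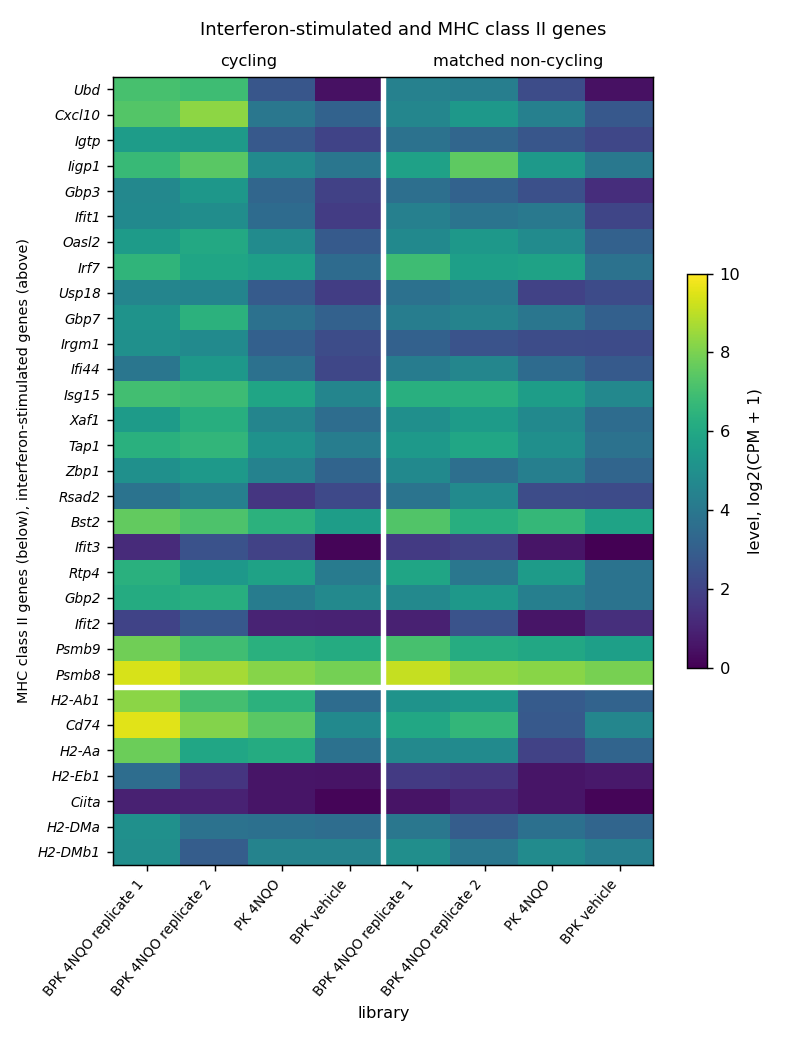
The heatmap gives log2(CPM + 1) of 24 interferon-stimulated and 7 MHC class II genes in cycling cells (left) and depth-matched non-cycling cells (right) of each gland library. In cycling cells the BPK 4NQO columns hold the highest values of Ubd, Cxcl10 and Igtp, and BPK vehicle the lowest.

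Further named genes rose after 4NQO, several of them in few cells. Alox12e, an epidermal lipoxygenase, was at 62.0 and 98.9 CPM in the BPK 4NQO replicates, 9.35 in PK 4NQO and 1.92 in BPK vehicle (log2 fold change 5.09, SE 0.922, edgeR adjusted p = 2.15e-05), in 39 and 16 cells of the BPK 4NQO replicates. Both replicates lay above the other glands, and in luminal cells alone the log2 fold change was 4.74. Klk8, a skin kallikrein protease, was at 64.2 and 33.6 CPM in the BPK 4NQO replicates, 9.84 in PK 4NQO and 2.10 in BPK vehicle (4.34), but in luminal cells alone the log2 fold change was 0.95. Serpinb2, a protease inhibitor, was at 20.7 and 96.0 CPM in 8 and 7 cells of the BPK 4NQO replicates, 2.95 CPM in PK 4NQO and 0.175 in BPK vehicle, a ratio of 334 to vehicle with a counting interval of 92.4 to 2755. Its log2 fold change of 7.80 was 5.15 without replicate 2. Jchain, the joining chain of secreted immunoglobulins, was at 69.1 and 28.8 CPM in 3 and 2 cells of the BPK 4NQO replicates, with 98.7% and 96.7% of its UMIs in 1 cell each. Fbn1, the fibrillin of stroma, was at 6.16 and 253 CPM in the BPK 4NQO replicates, 6.89 in PK 4NQO and 4.28 in BPK vehicle. Its log2 fold change of 4.51 was 0.39 without replicate 2. Cst6, a cystatin, had 90.7% and 99.0% of its UMIs in 1 cell of the BPK 4NQO replicates. The fibroblast markers Col1a1 and Dpt also rose, 2 of 7, beside the fibroblast sums given above.

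No gene of the division lists passed for treatment, in cells that the rule had chosen on genes of the same programme. Positive log2 fold changes were held by 23 of 29 S phase genes and 28 of 35 G2 and mitosis genes. The same was so for 16 of 22 cyclin, CDK inhibitor, E2F and Myc genes and 23 of 29 recombination and Fanconi genes. Within cycling cells 0 of 29 S phase genes (median log2 fold change 0.40), 0 of 35 G2 and mitosis genes (0.54), 0 of 22 cyclin, CDK inhibitor, E2F and Myc genes (0.33) and 0 of 29 recombination and Fanconi genes (0.34) were called by edgeR, beside 509 of all 11092 genes at an unadjusted p under 0.05 by edgeR and 331 by DESeq2. Likewise 0 of 16 p53 targets (−0.08), 0 of 14 NRF2 targets (−0.15), 0 of 14 glycolysis genes (0.42) and 0 of 12 immediate early and heat shock genes (−0.16) passed. Of lineage markers, 0 of 11 basal genes (0.49), 0 of 10 alveolar genes (−0.20) and 0 of 8 hormone-sensing genes (−0.66) passed. Krtdap, of keratinocytes, was the 1 of 9 keratinocyte markers that rose. Ereg, the ligand epiregulin, was the 1 of 10 EGFR family and ligand genes that rose, with 5.72 and 28.8 CPM in 11 and 10 cells of the BPK 4NQO replicates, 0.492 CPM in PK 4NQO and 0.262 in BPK vehicle (5.50, edgeR adjusted p = 0.000577).

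Between the genotypes after 4NQO, fewer genes passed. BPK against PK cycling cells, in the same model and with the same BPK 4NQO libraries as the treatment comparison, gave 22 genes higher and 7 lower of 11092, which is 0.261% (0.198% and 0.0631%). By DESeq2 the count was 6, and with at least 4 of the 6 cycle genes asked for it was 47 by edgeR. Ubd was higher by 4.35 on the log2 scale (SE 1.00, edgeR adjusted p = 0.00743) with the values given above, and by 4.33 in luminal cells alone. Cxcl9, Jchain, Serpinb2 and Cst6 were also higher, with the cells given above. Has2, a hyaluronan synthase, was at 7.04 and 94.1 CPM in the BPK 4NQO replicates and 1.97 in PK 4NQO (4.29), and its log2 fold change was 1.60 without replicate 2. Tnfaip6, which binds hyaluronan, was at 4.84 and 127 CPM in the BPK 4NQO replicates and 3.45 in PK 4NQO (3.87), and its log2 fold change was 0.39 without replicate 2. The higher values of both genes were thus those of replicate 2. Of 25 interferon-stimulated genes 1 was higher, with a list median of 1.19 beside 0.02 over all genes. Of 29 S phase genes 0 passed, with 28 positive and a median of 1.04, beside 438 of all genes at an unadjusted p under 0.05. No lower gene met the rule for naming in either comparison.

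The treatment difference was set against that in depth-matched non-cycling gate cells of the same libraries as an interaction term, with library as a block. Of 11 basal markers 9 had a more positive treatment difference in cycling cells, and of 8 hormone-sensing markers 3 had a more negative one. Of 11425 genes 153 had a more positive treatment effect in cycling cells and 74 a more negative one, by edgeR's quasi-likelihood test at an adjusted p under 0.05, which is 1.99% (1.34% and 0.648%). The basal markers had a median of 1.83 beside −0.03 over all genes. The basal and keratinocyte markers also set the lineage scores, so that this count and the make-up described above are 1 observation. The matched cells held fewer basal cells than the gate, with the lowest shares in BPK 4NQO. Their summed basal markers came to 392 and 365 CPM in the BPK 4NQO replicates, 679 in PK 4NQO and 890 in BPK vehicle. In cycling cells the sums were 3289 and 2902 CPM in the BPK 4NQO replicates, 2320 in PK 4NQO and 995 in BPK vehicle. The part of the matching in the basal interactions, with those of Krt14 and Krt5, was not tested. In luminal cells alone 0 of 9 basal markers were called, which is in part set by the choice of these cells on the same markers. There 2 genes in all were called by edgeR, Ccl20 and Csn2, beside 347 genes at an unadjusted p under 0.05. By DESeq2 18 genes were called over all lineages.

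Krt14 (chr11:100203162-100207548, minus strand, GRCm38), whose promoter drives Cre in these mice, was at 1492 and 904 CPM in cycling cells of the BPK 4NQO replicates, 484 in PK 4NQO and 146 in BPK vehicle. In non-cycling cells it was at 92.2 and 55.3 CPM in the BPK 4NQO replicates, 89.8 in PK 4NQO and 128 in BPK vehicle. The BPK 4NQO replicates were thus highest among cycling cells, and not among non-cycling cells (interaction 3.76 on the log2 scale, SE 0.260, edgeR adjusted p = 1.68e-14). Without replicate 2 the interaction was 3.78. In luminal cells alone it was 2.11 and did not pass (edgeR adjusted p = 0.253). Krt5 had an interaction of 4.42 with the values given above. Lgals7, a galectin of stratified epithelium, was at 985 and 440 CPM in cycling cells of the BPK 4NQO replicates, 250 in PK 4NQO and 83.5 in BPK vehicle, and at 89.1 and 76.7 CPM in non-cycling cells of the BPK 4NQO replicates, 93.3 in PK 4NQO and 85.7 in BPK vehicle (3.03). Vim, the filament protein of mesenchymal and some basal cells, had an interaction of 3.27 and Vcan, a matrix proteoglycan, of 3.14. In basal or keratinocyte-scored cycling cells Vcan was at 53.7 and 278 CPM in the BPK 4NQO replicates and 46.1 in BPK vehicle. Vim was at 711 and 997 CPM in the same cells of the BPK 4NQO replicates and 237 in BPK vehicle. In luminal cycling cells Vcan was at 2.94 and 62.4 CPM in the BPK 4NQO replicates and 1.56 in BPK vehicle. Replicate 2 was the higher in each case, and its cycling cells also held the most fibroblast marker CPM. Igfbp2, an IGF-binding protein, had an interaction of 3.21 and Ptgs2, which makes prostaglandins, of 3.41.

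Csn2 (chr5:87692624-87699630, minus strand, GRCm38), the beta-casein gene, was at 626 and 371 CPM in cycling cells of the BPK 4NQO replicates, 206 in PK 4NQO and 42.7 in BPK vehicle. In non-cycling cells it was at 8.82 and 20.4 CPM in the BPK 4NQO replicates, 71.5 in PK 4NQO and 24.9 in BPK vehicle (interaction 4.47, SE 0.371, edgeR adjusted p = 4.08e-12). Its UMIs were in 14 and 12 cycling cells of the BPK 4NQO replicates, 24 of PK 4NQO and 52 of BPK vehicle, and 61.5% and 69.8% of those of the BPK 4NQO replicates were in 1 cell each. Among 8 milk protein genes, Csn1s2a was also in the positive direction, and Btn1a1, Csn3 and Lalba were in the negative one. On the negative side Prlr had an interaction of −1.61 (SE 0.227, edgeR adjusted p = 4.86e-06). Its level was 308 and 546 CPM in cycling cells of the BPK 4NQO replicates, against 551 in BPK vehicle, while in non-cycling cells it was 1193 and 2215 CPM in the BPK 4NQO replicates, against 755 in BPK vehicle. Prlr was thus highest in the non-cycling cells of the BPK 4NQO glands. Prlr is also a marker of the hormone-sensing score, and hormone-sensing cells were 44.2% and 44.1% of these non-cycling cells in the BPK 4NQO replicates and 31.1% in BPK vehicle, so its interaction and the make-up are not separate observations. In luminal cells alone the interaction of Prlr was −1.10 and did not pass (edgeR adjusted p = 0.108). Cited1 and Foxa1, factors of hormone-sensing cells, were also in the negative direction, which made 3 of 8 hormone-sensing markers. Of 25 interferon-stimulated genes Cxcl10, Igtp and Irgm1 were in the positive direction, and of 6 MHC class II genes 3 were.

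**Figure D5:**
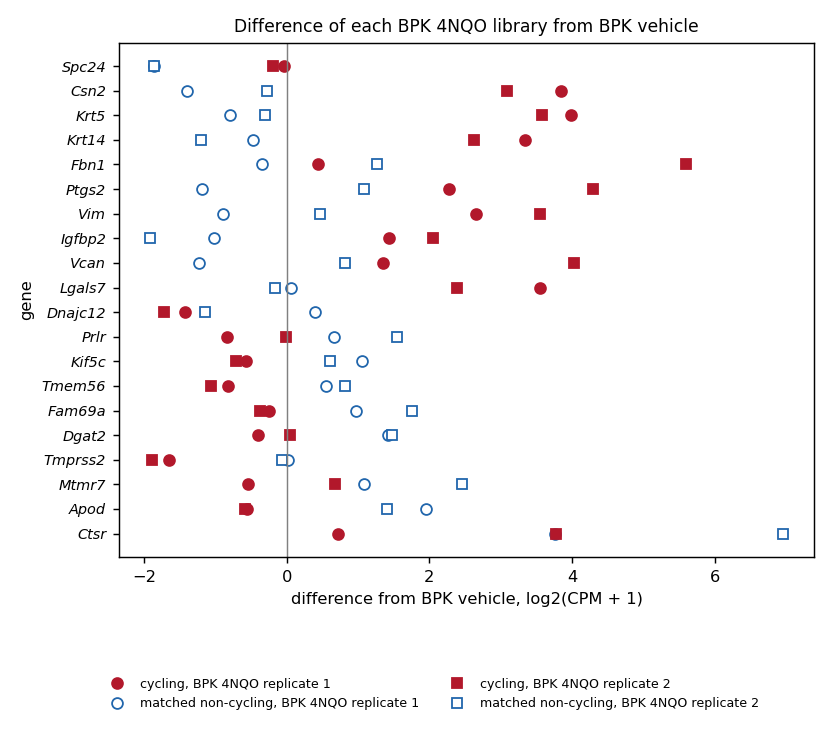
For 20 genes with a called interaction, points give the difference of each BPK 4NQO library from BPK vehicle in log2(CPM + 1), in cycling cells (filled) and matched non-cycling cells (open), with circles for replicate 1 and squares for replicate 2. Krt14, Krt5 and Csn2 lie to the right in cycling cells, and Prlr to the right in non-cycling cells.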

How the data were processed

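Single-cell RNA of 4 gland libraries and 1 tumor library was used. The authors deposited UMI counts per gene and barcode for 27998 genes, made with Cell Ranger (release 3.0.2 in the PK 4NQO library, 5.0.1 elsewhere), per the file headers, on mm10, per the submitters' processing notes. The annotation release was not given in the sources used here. Barcodes with at least 300 genes and at most 20% mitochondrial counts were kept. No doublet was removed, and the barcodes with the top scrublet scores (the top share growing with the number of barcodes) were left out as an alternative. Lineage scores were means of scaled log values of marker lists. Non-cycling cells held 0 of the 6 genes and were matched to cycling cells on UMIs, 1 to 1 within a library. Counts were summed per library and cell group and tested with edgeR 4.0.16 (TMM, filterByExpr, quasi-likelihood) in R 4.3.3, with Benjamini-Hochberg adjustment over all genes tested and a threshold of 0.05. DESeq2 1.42.0 was an alternative. Cells were handled with Python 3.11.15 and scanpy 1.11.5, and the tests were checked on simulated data. Library pairs cycling with non-cycling cells of the same gland, and the treatment and genotype models have no pairing, since the labels name no donor or batch that libraries of different groups share. Summed UMIs of the cycling cells ranged between 1041827 and 11440074 per library, and shares have 95% Clopper-Pearson intervals.

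The members and the gene lists were chosen with earlier results of these data known. Genes named are the 10 largest folds a side at the threshold whose mean level reached 30 CPM and whose direction held in each library pair or in both BPK 4NQO replicates, without markers of other cell types, hemoglobins, predicted models and the like, plus called and abundant members of each list. For cycling against non-cycling cells the 10 leaders outside the S phase and G2 and mitosis lists were added after their values were seen. Gene locations are from GENCODE M21 on GRCm38, the assembly also called mm10, and promoters from RefSeq on GRCm38.p6. The labelled 4NQO concentration was not used, since its unit is in doubt. A few list members are counted in their lists but not reported by name here.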

Additional observations from a re-analysis of the deposited data

Results flagged for a closer look

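The interaction test of edgeR called 227 genes. In these the treatment difference in cycling cells was other than that in depth-matched non-cycling cells of the same glands. By DESeq2 18 genes were called, and in luminal cells alone 2 were called by edgeR. The 20 genes listed here had the largest folds on each side among those that met the rule for naming. Log2 values are the difference between BPK 4NQO and BPK vehicle in cycling cells minus that in non-cycling cells. On the positive side, Spc24 had 6.30, Csn2 4.47, Krt5 4.42, Krt14 3.76, Fbn1 3.61, Ptgs2 3.41, Vim 3.27, Igfbp2 3.21, Vcan 3.14 and Lgals7 3.03. The value of Spc24 is a fitted one and no bound, because its non-cycling cells held 0 and 0 CPM in the BPK 4NQO replicates and 2.63 in BPK vehicle, while its cycling cells held 81.4 and 73.0 CPM in the BPK 4NQO replicates and 83.6 in BPK vehicle. The interaction of Spc24 was 2.40 without replicate 1 and 2.91 without replicate 2, with no test left, and it did not pass by DESeq2 (adjusted p = 0.606), in luminal cells alone (edgeR adjusted p = 1) or with fewer than 2 fibroblast UMIs (edgeR adjusted p = 0.0652). The value of Fbn1 was 0.86 without replicate 2.

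On the negative side, Ctsr, a cathepsin, had −4.53, Apod, an apolipoprotein, −2.44, Mtmr7 −1.85, Tmprss2, a membrane protease, −1.82, Dgat2, which makes triglycerides, −1.76, Fam69a −1.69, Tmem56 −1.68, Kif5c −1.62, Prlr −1.61 and Dnajc12 −1.59. In luminal cycling cells Ctsr was at 5.88 and 5.06 CPM in the BPK 4NQO replicates and 1.45 in BPK vehicle. In basal or keratinocyte-scored cycling cells it was at 0 and 77.9 CPM in the BPK 4NQO replicates and 3.34 in BPK vehicle. The negative value of Ctsr thus does not mean a lower level than vehicle in these cells of each replicate. Apod was at 21.5 and 21.1 CPM in cycling cells of the BPK 4NQO replicates and 32.1 in BPK vehicle, and at 150 and 102 CPM in non-cycling cells of the BPK 4NQO replicates and 37.9 in BPK vehicle. For Apod, Dgat2, Mtmr7 and Fam69a the BPK 4NQO replicates were thus close to vehicle in cycling cells, or below it, except that Mtmr7 reached 25.9 CPM in replicate 2 against 15.8 in vehicle.

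The tumor library lies outside the comparisons of glands and held many cells that meet the same conditions. In it 466 of 1113 gate cells (41.9%, interval 39.0 to 44.8) were cycling, more than the share in the BPK vehicle gland. Its gate cells had a median of 28585 UMIs, and at 3000 UMIs per cell the share was 11.3%.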

How the results depend on the processing

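Cycling shares, BPK 4NQO over BPK vehicle, gave a log2 ratio of −1.73, and −1.14, −1.34 and −1.17 after thinning to 3000, 2000 and 5000 UMIs, −1.21 at 3000 UMIs with 2 of 6 genes (added after seeing the data), and −1.89 to −1.57 when a replicate was left out. BPK 4NQO over PK 4NQO gave −0.11, and turned to 0.16, 0.25 and 0.39 after thinning to 3000, 2000 and 5000 UMIs, 0.16 at 3000 UMIs with 2 of 6 genes, 0.090 with at least 4 of 6 genes and 0.052 without replicate 1, against −0.26 without replicate 2. The S phase to G2 and mitosis ratio, BPK over PK 4NQO, was 0.88 on the log2 scale, 0.78 with at least 4 of 6 genes and 0.54 in luminal cells alone.

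Calls between cycling and non-cycling cells numbered 2061 with the library block, 514 with no library replicate block, and 1096 to 1858 without 1 library. Calls for treatment numbered 125, and 49 by DESeq2 and 62 in luminal cells. Calls for genotype numbered 29, and 6 by DESeq2 and 47 with at least 4 of 6 genes. Calls for the interaction numbered 227, and 18 by DESeq2, 149 with fewer than 2 fibroblast UMIs and 2 in luminal cells. Luminal-only and low-fibroblast settings were added after seeing the data. The cause of these moves was not tested. Among the genes named for the largest folds, none changed direction in the comparison it is named for. This did not hold for all called genes. Some treatment calls changed direction without replicate 2, and some interaction and cycling calls did so in luminal cells alone. The interaction of Cst6, which is named for treatment and genotype, was −2.29, and 3.64 with fewer than 2 fibroblast UMIs. No paired analysis was possible because the labels pair no library of one group with one of another. Leaving out a BPK 4NQO replicate left no test for treatment, genotype or interaction. The alveolar-only setting was not run, since replicate 2 held fewer than 30 such cells.

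The spread rests on 1 pair of libraries, so treatment and genotype cannot be told apart from library differences. BPK 4NQO replicate 2 contributed 93 cells, and low genes rest on few cells.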

Other observations

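The cycling cells of the tumor held a different marker make-up from those of the glands, given here as levels in 1 library with no test. Summed basal markers came to 22106 CPM and keratinocyte markers to 17573 CPM. Krt14 was at 14492 CPM, Krt5 at 3077 and Krt6a, a keratin of wounded epidermis, at 3461. Summed interferon-stimulated genes came to 326 CPM and MHC class II genes to 52.4, which are below the values of each gland. Ubd was at 1.70 CPM and Cxcl10 at 8.80, which unlike the sums were not below BPK vehicle. In luminal cycling cells of BPK vehicle Ubd was at 0.311 CPM and Cxcl10 at 8.51. In its basal or keratinocyte-scored cycling cells they were at 0.556 and 4.45 CPM. Serpinb2 was at 1114 CPM and Klk8 at 603.

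Among the 10 genes that were lower after 4NQO in cycling cells were the hemoglobin genes Hba-a1 and Hbb-bs. Acta1, the actin of skeletal muscle, was also among them, at 0 CPM in both BPK 4NQO replicates, 37.4 in PK 4NQO and 39.3 in BPK vehicle. A single cell held 93.4% of these UMIs in PK 4NQO and 58.2% in BPK vehicle. These 3 genes were named after their values were seen.

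In cycling cells, levels also differed by lineage within a library. Ubd was at 190 CPM in luminal and 53.7 CPM in basal or keratinocyte-scored cells of BPK 4NQO replicate 1, and at 45.6 CPM in luminal and 216 CPM in basal or keratinocyte-scored cells of replicate 2, so the order of the lineages turned between replicates. Cxcl10 was at 101 CPM in luminal and 249 CPM in basal or keratinocyte-scored cells of replicate 1, and at 152 and 530 CPM in the same cells of replicate 2. Cd74 was at 631 CPM in luminal and 933 CPM in basal or keratinocyte-scored cells of replicate 1, and at 211 and 367 CPM in the same cells of replicate 2.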
